A study of Mus musculus with 5 samples.

Results

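MicroRNAs of the miR-210 and miR-34 families were followed by 5 microarray probes in mouse helper T cells through activation, out of 171 microRNA probes and 178 probes in all. They are 2org-210, which carries the number of miR-210, and 1org-34c, 2org-34, 1org-34a and 1org-34b, which carry the number of miR-34. They were picked by probe ID and microRNA number, and on the log ratios of these same arrays, which were known when they were picked, so every value of theirs is a description and none is tested. All 5 members gave a value on every array, and no filter on low values was used. The RNA was total RNA of CD4+25- T cells, which are CD4-positive and CD25-negative and so lack most regulatory T cells. On each array RNA of activated cells was set against RNA of cells of the same kind without activation, called naive here after the title of the series. There was 1 array for cells activated overnight, 2 for cells activated for 3 days and 2 for cells activated for 10 days, and the 2 arrays of a day had the dyes exchanged. No source used here names the agents of activation, the culture, or the strain, age and number of the mice.

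MiR-210 is known as the microRNA that most cell types induce in low oxygen, through hypoxia-inducible factor, and it represses the iron-sulfur cluster scaffold Iscu. The miR-34 family is known as a direct transcriptional target of p53 and represses regulators of the cell cycle and of survival, such as Cdk6 and Bcl2. MiR-34a has a gene of its own, while miR-34b and miR-34c are processed from 1 shared transcript. Hypoxia-inducible factor is also active in T cells that have been stimulated through the antigen receptor.

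The mature sequences below show which members of the miR-34 family share a seed, bases 2 to 8, which largely sets the targets of a microRNA. They are mouse sequences of RefSeq (GRCm38.p6), written 5′ to 3′ with the seed in capitals. RefSeq held an entry for each of the 4 genes.
mmu-miR-210-3p: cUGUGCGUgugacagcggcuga
mmu-miR-34a-5p: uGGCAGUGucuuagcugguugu
mmu-miR-34b-5p: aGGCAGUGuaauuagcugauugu
mmu-miR-34b-3p: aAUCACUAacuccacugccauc
mmu-miR-34c-3p: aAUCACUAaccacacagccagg
The hairpin of the miR-34c gene is shown as well, with the letters of the miR-34a-5p seed in capitals, since it holds them in its 5′ arm.
Mir34c hairpin: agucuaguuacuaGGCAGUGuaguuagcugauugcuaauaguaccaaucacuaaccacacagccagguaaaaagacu

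MiR-34a-5p and miR-34b-5p have the same seed, GGCAGUG, and RefSeq lists it for 4 mature mouse microRNAs of 1738, the others being miR-449a-5p and miR-449c-5p. MiR-34c-5p was not used here, so this count leaves it out. On the given strand these letters occur in 17 of 1005 mouse hairpins (1.69%), and in the miR-34c hairpin they begin at base 14. The seed AUCACUA is common to miR-34b-3p and miR-34c-3p, and no other mature entry has it. The seed of miR-210-3p, UGUGCGU, has no second entry. Beyond the seed the 5p arms differ: miR-34a-5p and miR-34b-5p matched at 19 of 23 aligned positions (82.6%), with a longest common run of 8 bases. With gaps allowed in the same way, the miR-34c hairpin matched miR-34b-5p at 21 of 23 positions (91.3%) and miR-34a-5p at 18 of 23 (78.3%). The probe sequences, and so the arm each probe was made for, were not used here. Whether the miR-34 probes share signal from one another was not tested.

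Mir210 lies at chr7:141221384-141221493 on the minus strand and overlaps no other gene of the RefSeq table, with Rassf7 as its nearest neighbour. Mir34a lies at chr4:150068454-150068555 on the plus strand, also without an overlapping gene. Mir34c, at chr9:51103034-51103110, and Mir34b, at chr9:51103562-51103645, both on the minus strand, are 451 bases apart. They lie within the annotated spans of Btg4 and Hoatz, and the table does not give exons or introns there.

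The ID and the annotation of the 1org-34a and 1org-34c probes disagree. The GEO platform annotation gives Mirn34c (now Mir34c) for 1org-34a and Mirn34a (now Mir34a) for 1org-34c. For 1org-34b it gives Mirn34b (now Mir34b), the same as the ID. It gives no gene for 2org-210 and 2org-34. Neither source was taken as right, so each probe is named by its ID with the annotated gene beside it.

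Each deposited value was taken to be the log2 of Cy5 over Cy3, although no source used here states the log base or the numerator. The arrays with activated RNA in Cy3 were turned by -1, so that positive values mean more signal with RNA of activated than of naive cells. If Cy3 was the numerator, every direction below is turned and every rank, counted from the highest ratio, would count from the lowest. Before turning, the 2 arrays of a dye pair had a Pearson correlation across the 171 probes of -0.66 (day 3) or -0.43 (day 10). The array medians of the turned values were -1.75 on the overnight array, 0.20 and 1.42 on the day 3 arrays and -0.51 and -0.38 on the day 10 arrays. A log ratio of an unchanged microRNA therefore need not be 0, and values are also given after centring each array on its median. Log ratios show no level, so it is unknown which probes rose above background, and neither the labelled cell type nor the presence of a microRNA can be checked from them. Fewer cells with a microRNA and less of it per cell cannot be told apart. Precision is limited by the number of arrays, and no source used here says if the 2 arrays of a pair held separate RNA extracts. After a pair mean, ± is the distance of either array from it (n = 2 arrays). It holds the dye effect of the probe, which the mean cancels, and any shift between the 2 arrays, and is no standard error.

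Probe 2org-210 was far higher with RNA of activated than of naive cells at both day 3 and day 10, and it had the highest mean of all 171 microRNA probes at each of these times (the lowest, if Cy3 was the numerator). Overnight its log2 ratio was -1.10. At day 3 it was 4.94 with activated RNA in Cy5 and 5.13 with it in Cy3, a mean of 5.03 ± 0.09 (n = 2 arrays), which is 32.8-fold. At day 10 it was 4.67 in Cy5 and 4.16 in Cy3, a mean of 4.41 ± 0.25 (n = 2 arrays), or 21.3-fold. All 4 arrays of days 3 and 10 lay above 4, and the single overnight array lay below 0. The overnight value lay above the median of its array, at 51st of 171. On single arrays the probe ranked 2 and 3 at day 3 and 1 and 2 at day 10. After centring the values were 0.65 overnight, 4.22 at day 3 and 4.86 at day 10, so only the overnight value changed sign.

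Between day 10 and day 3 the log2 ratio of 2org-210 differed by -0.62 as deposited and by 0.64 after centring. The day 10 pair lay wholly below the day 3 pair as deposited. Centred on the 7 probes for other small RNAs it differed by -1.67, past 2-fold. The order of days 10 and 3, and whether they differ by 2-fold, thus depends on how the arrays are set to each other.

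Probe 1org-34c, annotated as Mir34a, was higher in activated cells at days 3 and 10, with a larger ratio at day 10. Its log2 ratio was -2.60 overnight. At day 3 it was 3.00 in Cy5 and 3.14 in Cy3 (mean 3.07 ± 0.07, n = 2 arrays, 8.42-fold). At day 10 it was 4.21 in Cy5 and 4.30 in Cy3 (mean 4.26 ± 0.04, n = 2 arrays, 19.1-fold). The day 10 arrays lay above the day 3 arrays without overlap, by 1.18 on average, or by 2.44 after centring. With arrays centred on the other small RNA probes, the difference was 0.13. On the overnight array the probe stood at 158th of 171, below the array's median by 0.85.

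Probe 2org-34, which has no annotated gene, differed from 1org-34c by 0.01 and -0.15 on the day 10 arrays and by 0.82 overnight, where the probes ranked 91 and 158. Its log2 ratio was -1.78 overnight. At day 3 it was 3.60 in Cy5 and 3.30 in Cy3 (mean 3.45 ± 0.15, n = 2 arrays, 10.9-fold). At day 10 it was 4.22 in Cy5 and 4.15 in Cy3 (mean 4.19 ± 0.04, n = 2 arrays, 18.2-fold). Day 10 was above day 3 without overlap by 0.74 as deposited, under 2-fold, by 1.99 after centring on the array median, and by -0.31, the opposite direction, when arrays were centred on the other small RNA probes. At day 10 the means of 2org-210, 1org-34c and 2org-34 were the 3 highest of the 171, and their ranges over the 2 arrays overlapped, so their order there is within the distance between arrays. At day 3 the mean of 2org-34 ranked 9 and that of 1org-34c ranked 13, and on both day 3 arrays 2org-210 was above either.

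**Figure D1:**
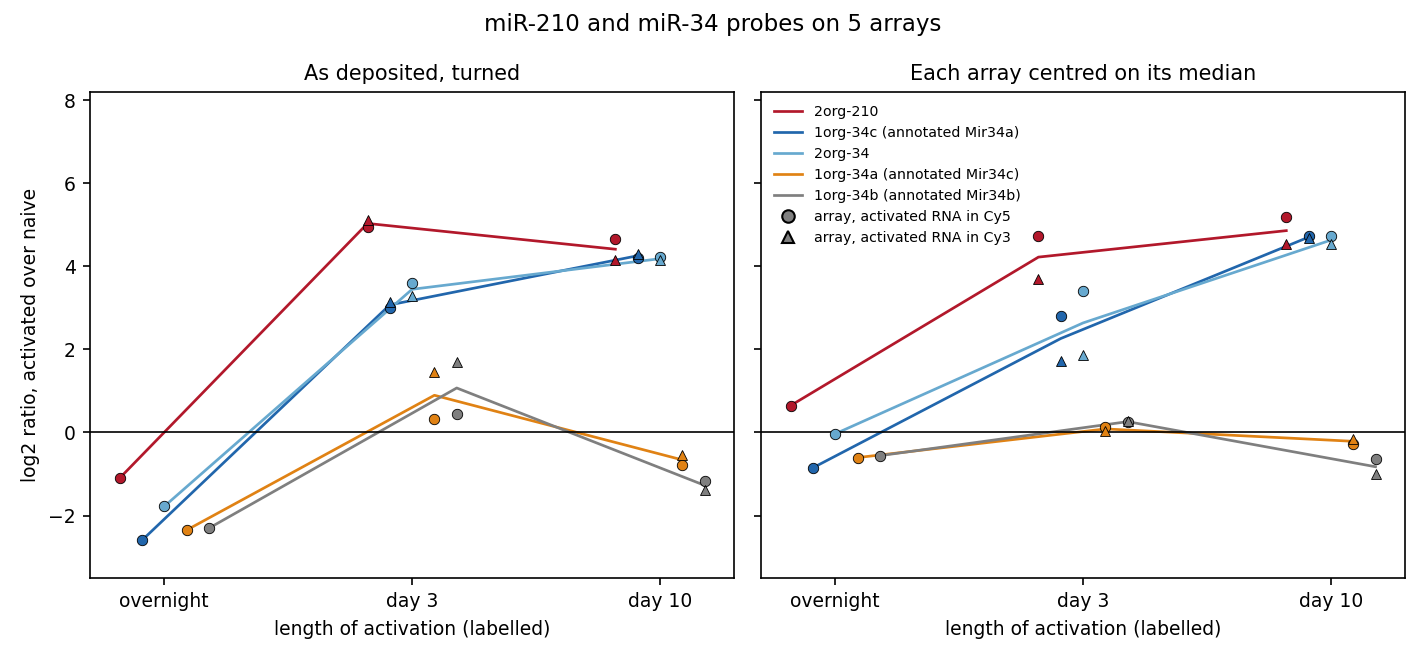
Log2 ratio of activated over naive cells (vertical axis) for the 5 probes at 3 lengths of activation (horizontal axis, evenly spaced and not to scale, probes set side by side), as deposited and turned on the left and centred on each array's median on the right. Points are arrays, circles with activated RNA in Cy5 and triangles with it in Cy3, and lines join the means. Probes 2org-210, 1org-34c and 2org-34 are above 3 on every deposited array of days 3 and 10, while after centring 1org-34a and 1org-34b have no value above 0.28.

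The remaining miR-34 probes ranked no higher than 62 of 171 on any array. They ranked between 62 and 84 on the day 3 arrays, overnight 1org-34a was 146th and 1org-34b 142nd, and at day 10 1org-34a was 108th and 97th and 1org-34b 126th and 148th. Probe 1org-34a, annotated as Mir34c, had a log2 ratio of -2.35 overnight. At day 3 it was 0.33 in Cy5 and 1.46 in Cy3 (mean 0.90 ± 0.56, n = 2 arrays), just under 2-fold. At day 10 it was -0.79 in Cy5 and -0.53 in Cy3 (mean -0.66 ± 0.13, n = 2 arrays). Every day 10 array was below 0 and every day 3 array above it. After centring the values were -0.60 overnight, 0.09 at day 3 and -0.21 at day 10.

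Probe 1org-34b, annotated as Mir34b, had a log2 ratio of -2.31 overnight. At day 3 it was 0.45 in Cy5 and 1.70 in Cy3 (mean 1.07 ± 0.63, n = 2 arrays), just past 2-fold. At day 10 it was -1.16 in Cy5 and -1.38 in Cy3 (mean -1.27 ± 0.11, n = 2 arrays, 2.42-fold lower than in naive cells). The day 10 and day 3 arrays did not overlap, and they lay on opposite sides of 0. Its difference of day 10 and day 3, -2.34 as deposited and -1.09 after centring, was below -1 in both settings, whereas that of 1org-34a was -1.56 as deposited and -0.30 after centring. After centring the probe stood at -0.56 overnight, 0.26 at day 3 and -0.82 at day 10, so none of its means was 2-fold from the array median. The array medians themselves moved in the same way as both probes, and their part in these values was not tested beyond the centred values given here.

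**Figure D2:**
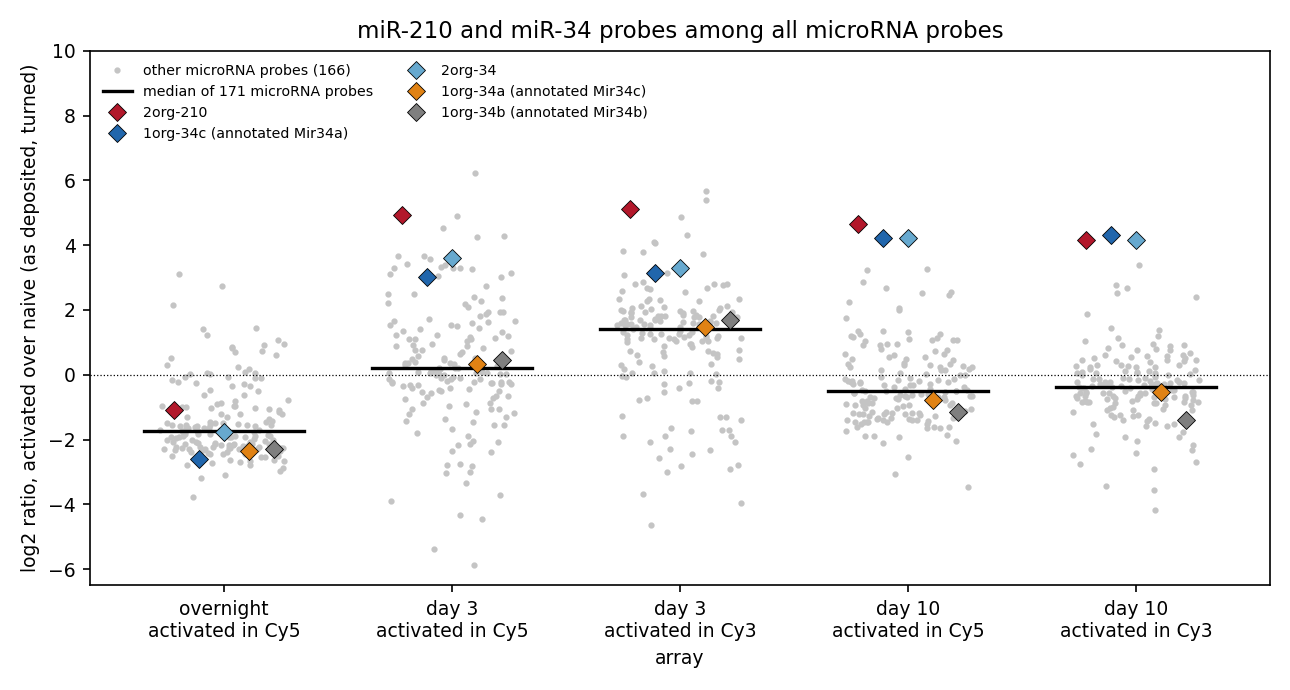
Log2 ratio of activated over naive cells, as deposited and turned (vertical axis), for the 171 microRNA probes on each of the 5 arrays (horizontal axis, with the dye of the activated RNA). Diamonds are the miR-210 and miR-34 probes, grey dots all other microRNA probes and bars the array medians, which lie between -1.75 and 1.42. At day 10 the diamonds of 2org-210, 1org-34c and 2org-34 are the highest points of both arrays, while those of 1org-34a and 1org-34b lie below the medians.

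Differences between probes on the same array do not depend on how arrays are centred. The log2 ratio of 1org-34c minus that of 1org-34a, the annotated miR-34a and miR-34c probes, was -0.25 overnight. At day 3 it was 2.67 and 1.68 with activated RNA in Cy5 and in Cy3, and at day 10 it was 5.00 and 4.84. The ratios of the annotated miR-34a and miR-34c probes were thus close together overnight and furthest apart at day 10, and the 3 times did not overlap. Probe 2org-34 minus 1org-34c was 0.82 overnight, with 0.60 and 0.15 on the day 3 arrays and 0.01 and -0.15 on the day 10 arrays. The probe without a letter was thus closest to 1org-34c on the day 10 array with activated RNA in Cy5. The size of the difference was alike on the day 3 and day 10 arrays with it in Cy3. Probe 1org-34a minus 1org-34b stayed within 0.24 of 0 overnight and at day 3 and was 0.38 and 0.85 at day 10. These 2 probes are annotated to Mir34c and Mir34b, the neighbouring genes on chromosome 9. Probes of other microRNAs were closer to 1org-34a over the 5 arrays, with 1org-34b 16th in likeness.

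Probe 2org-210 led 1org-34c by 1.50 overnight and by 1.94 and 1.98 at day 3. At day 10 it was 0.46 above with activated RNA in Cy5 and 0.14 below with it in Cy3 (-0.14). The lead of the miR-210 probe over the annotated miR-34a probe was smaller on both day 10 arrays than on any earlier array.

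**Figure D3:**
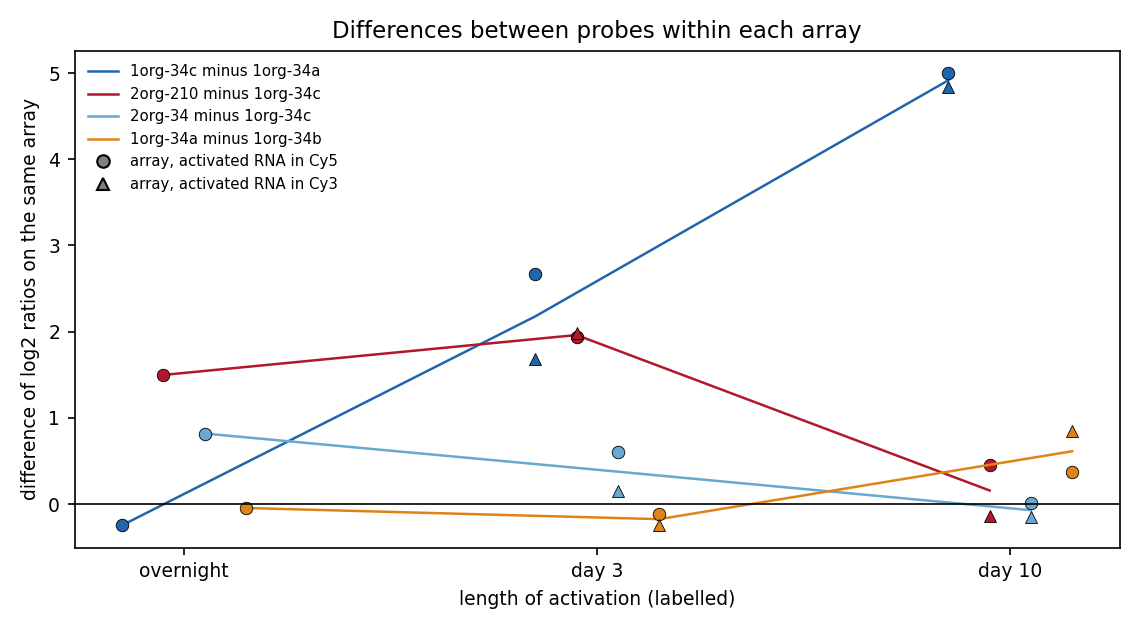
Difference between the log2 ratios of 2 probes on the same array (vertical axis) at 3 lengths of activation (horizontal axis, evenly spaced and not to scale, pairs of probes set side by side). Circles are arrays with activated RNA in Cy5, triangles those with it in Cy3, and lines join the means. The difference of 1org-34c and 1org-34a is -0.25 overnight and 5.00 and 4.84 at day 10, while 2org-34 and 1org-34c differ by at most 0.82.

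Counts of members stand beside those of all 171 probes, and since the members were chosen with these values known, nothing is read from them. A probe was counted where its mean was at least 2-fold from 0, which is 1 on the log2 scale, with the same sign on every array of the time. Overnight all 5 members were lower in activated than in naive cells, as were 73.1% of all probes, and none was higher (4.09% of all). After centring none was lower (4.09% of all) or higher (21.6% of all). At day 3, 4 of 5 members were higher (38.0% of all) and none lower (12.9% of all), and after centring 3 were higher (15.2% of all) and none lower (19.9% of all). At day 10, 3 of 5 were higher (9.94% of all) and 1org-34b was lower (17.0% of all). After centring the same 3 probes, 2org-210, 1org-34c and 2org-34, were higher at day 10 (14.6% of all) and none was lower (4.09% of all). Between day 10 and day 3, with means at least 2-fold apart and no overlap, 1org-34c was higher at day 10 (12.9% of all) and 1org-34a and 1org-34b were lower (41.5% of all). Without the day 3 array that held activated RNA in Cy3, 1 member was lower, with 1org-34a at -0.99. After centring 1org-34c and 2org-34 were higher (28.1% of all) and 1org-34b was lower (13.5% of all).

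As deposited, the 3 high probes had smaller dye effects than the typical probe at day 3. These effects also hold the shift between the 2 arrays of a pair, whose medians were 0.20 and 1.42 at day 3. The part of the deposited value that did not turn with the dyes was -0.09 at day 3 and 0.25 at day 10 for 2org-210, -0.07 and -0.04 for 1org-34c and 0.15 and 0.04 for 2org-34. Over all microRNA probes its median size was 0.55 at day 3 and 0.20 at day 10, so that 2org-210 was under it at day 3 and over it at day 10. For 1org-34a it was -0.56 and -0.13 and for 1org-34b -0.63 and 0.11. After centring on array medians, the day 3 arrays (Cy5, then Cy3) stood at 4.74 and 3.70 for 2org-210 and 2.80 and 1.72 for 1org-34c. They stood at 3.40 and 1.88 for 2org-34, 0.13 and 0.04 for 1org-34a and 0.25 and 0.28 for 1org-34b. The order thus turned, with the arrays of the 3 high probes further apart than those of 1org-34a and 1org-34b. Taking the mean of the dye effects of days 3 and 10 off the overnight array, which had no dye swap, moved the overnight values to -1.18 for 2org-210, -2.54 for 1org-34c and -1.87 for 2org-34, with -2.01 for 1org-34a and -2.05 for 1org-34b.

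Likeness between probes was measured as the root mean square difference of the log2 ratios over the 5 arrays. Closest to 1org-34c was 2org-34 at 0.46, and closest to 2org-34 was 1org-34c at the same distance. The next for 1org-34c were 2org-222 (1.04), 2org-221 (1.26), 1org-96 (1.32, annotated Mir96) and 2org-210 (1.43), and for 2org-34 they were 2org-210 (1.08), 2org-222 (1.14), 1org-96 (1.29) and 2org-221 (1.35). For 2org-210 the nearest were 2org-34 (1.08), 1org-34c (1.43), 1org-96 (1.81), 2org-222 (1.97) and 1org-21 (2.05, annotated Mir21a). No probe came as close to 2org-210 as 2org-34 and 1org-34c came to each other.

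For 1org-34a the closest probes were 1org-299 (0.14, annotated Mir299a), 1org-130a (0.20), 2org-32 (0.22), 1org-10b (0.27, annotated Mir10b) and 1org-141 (0.33). For 1org-34b they were 1org-125b (0.25), 2org-217 (0.32), 1org-1d (0.36), 1org-291-s (0.37) and 1org-137 (0.37). The distance between 1org-34a and 1org-34b was 0.43. From 1org-34a, 1org-34b was 16th of 170 probes in likeness, 1org-34c 164th and 2org-34 165th. With the 4 arrays of days 3 and 10 alone, 3 to 5 of the 5 nearest probes of each member were shared with those over 5 arrays. By Pearson's r over the 5 arrays in place of distance, 2org-34 and 1org-34c were 9th and 13th in likeness to 2org-210, behind 1org-27a, 2org-222 and 1org-23a among others.

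Other microRNAs linked to hypoxia were divided between higher and lower ratios at days 3 and 10. The list held 13 probes: miR-23, miR-24, miR-26, miR-27, miR-103, miR-107, miR-181 and miR-213, which early work on cancer cells in low oxygen named beside miR-210. Overnight none was at least 2-fold higher in activated cells (4.09% of all) and 7 were lower (73.1% of all). The list median was -1.17, against -1.75 for all microRNA probes. At day 3, 7 were higher (38.0% of all) and 4 lower (12.9% of all), with a median of 1.33 against 0.83 for all. After centring 4 were higher (15.2% of all) and 5 lower (19.9% of all), with a median of 0.52 against 0.02. At day 10, 3 were higher (9.94% of all) and 2 lower (17.0% of all), with a median of 0.10 against -0.56. After centring 4 were higher (14.6% of all) and 2 lower (4.09% of all), with a median of 0.55 against -0.12.

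The higher hypoxia-linked probes at day 3 were led by 1org-23b (3.23 ± 0.10), 1org-23a (2.58 ± 0.08, annotated Mir23a), 1org-27b (1.93 ± 0.46) and 1org-24 (1.87 ± 0.43), from the clustered miR-23, miR-27 and miR-24 genes, then 2org-107 (1.36 ± 0.24) and 1org-27a (1.36 ± 0.21, annotated Mir27a), each with n = 2 arrays. Lower were 1org-181 (-4.53 ± 0.84), for a microRNA known from developing lymphocytes, 1org-26a (-4.19 ± 0.25), 1org-26b (-2.96 ± 0.06, annotated Mir26b) and 2org-181b (-1.94 ± 0.21). At day 10 those higher were 1org-23a (2.19 ± 0.32), 1org-27a (1.19 ± 0.06) and 1org-27b (1.07 ± 0.20), and those lower were 1org-181 (-3.52 ± 0.05) and 2org-181b (-1.82 ± 0.59). No probe of the list reached the mean of 2org-210 at day 3 or day 10.

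The 10 probes for microRNAs linked to p53 besides miR-34 had a median close to that of all microRNA probes at each time. The list held miR-15a, miR-16, miR-107, miR-141, miR-143, miR-145, miR-192, miR-194, miR-200c and miR-215, whose genes or processing p53 is known to promote. Its median was -1.73 overnight (all microRNA probes -1.75), 0.67 at day 3 (all 0.83) and -0.64 at day 10 (all -0.56). Overnight 1 was at least 2-fold higher (4.09% of all) and 8 lower (73.1% of all). The higher one, 2org-200c at 1.42, changed sign with the dye, with 3.31 and -2.06 at day 3 and 1.34 and -2.75 at day 10. The overnight array had no dye swap. At day 3, 3 were higher (38.0% of all) and 2 lower (12.9% of all). At day 10 none was higher (9.94% of all), which for 10 probes is near that share, and 1 was lower (17.0% of all). After centring 2 were higher overnight (21.6% of all), 2org-200c among them, and none lower (4.09% of all). At day 3, also centred, 3 were lower (19.9% of all) and none higher (15.2% of all). At day 10, also centred, none was 2-fold from 0, while 14.6% of all were higher and 4.09% lower.

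At day 3 those higher were 2org-107 (1.36 ± 0.24), 1org-145 (1.26 ± 1.06) and 1org-143 (1.08 ± 0.74, annotated Mir143), and those lower 1org-16 (-2.34 ± 0.65) and 1org-15a (-1.90 ± 0.19, annotated Mir15a). At day 10 the lower one was 1org-192 (-1.36 ± 0.28, annotated Mir192). The 1org-15a and 1org-16 probes, for microRNAs that repress Bcl2, stood at 0.51 ± 0.13 and -0.61 ± 0.06 at day 10 (n = 2 arrays each). The highest mean of the list was 1.36 at day 3 and 0.51 at day 10, against 3.07 and 4.26 for 1org-34c.

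**Figure D4:**
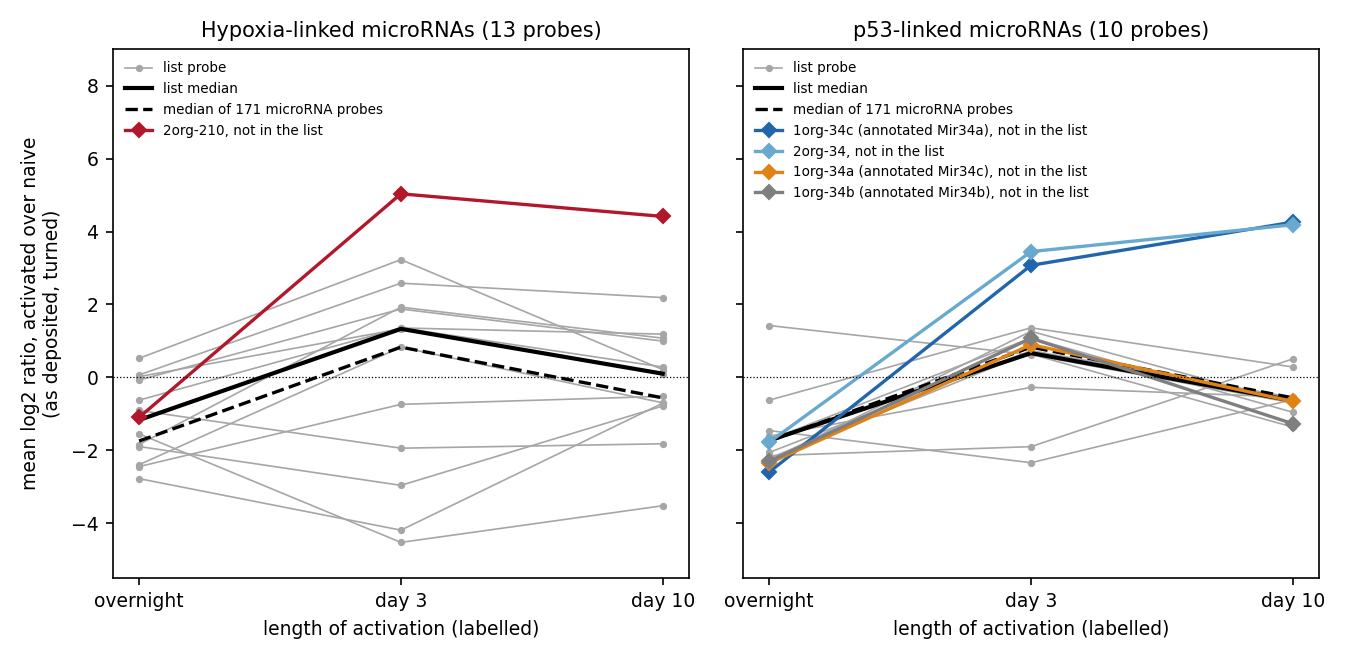
Mean log2 ratio of activated over naive cells, as deposited and turned (vertical axis), at 3 lengths of activation (horizontal axis, evenly spaced and not to scale) for 13 hypoxia-linked probes on the left and 10 p53-linked probes on the right. Grey lines are single probes, the solid black line is the list median, the dashed line the median of the 171 microRNA probes, and coloured lines the miR-210 or miR-34 probes, which are in neither list. At day 10 the hypoxia-linked probes reach 2.19 and the p53-linked probes 0.51. Probes 2org-210 at 4.41 and 1org-34c at 4.26 rank 1 and 2 of the 171 there and were picked with their values known.

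MicroRNAs of other cell types that a T cell preparation could hold gave no ratio near those of the high probes at day 10. The myeloid 2org-223 was at -2.00 overnight, -0.24 ± 1.12 at day 3 and -1.44 ± 0.17 at day 10, and the erythroid 1org-144 at -2.23, 1.03 ± 0.50 and -0.66 ± 0.72. At day 10 none of the 9 stromal and muscle, 6 epithelial and liver and 2 neural probes was at least 2-fold higher. Their highest means were -0.22, -0.46 and -0.48, and 9.94% of all microRNA probes were higher. At day 3 the stromal and muscle list held 5 probes at least 2-fold higher and the epithelial and liver list 1 (38.0% of all). Among the 5 was 2org-214 at 4.96, next to 5.03 for 2org-210. Overnight 2org-214 stood at 3.11, the highest microRNA value of that array. Of 6 lymphocyte probes 5 were at least 2-fold lower at day 3 (12.9% of all) and 1org-155 was higher (38.0% of all), at 4.88 ± 0.01. At day 10 none of these 6 was higher either (9.94% of all) and 3 were lower (17.0% of all). Their highest mean was 0.35, so the day 10 counts do not set lymphocyte probes apart from those of other cells. The part of such cells in the miR-210 and miR-34 values was not tested, and log ratios do not show how many of these cells each RNA came from.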

How the data were processed

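The authors deposited 1 log ratio per probe and array for 178 probes on 5 arrays, with no missing value. These deposited values were read as log2 ratios made by the authors from 2 channels, and no source used here gives the scanner, background correction, normalization, log base or numerator. Arrays were grouped, and turned by -1 where activated RNA was in Cy3, from the labels. The 7 transfer RNA and small nuclear RNA probes were left out of counts. Means of dye pairs, counts at 2-fold with the same sign on every array, ranks and root mean square differences were computed in Python 3.11.15 with pandas 2.3.3 and numpy 2.4.6, and sequence matches with Biopython 1.88 from RefSeq tables. Turning, pair means, counts and the dye correction were tested on simulated arrays with known ratios and dye effects. Those arrays had little noise and no shift between them. Centring, scaling, ranks, likeness and sequence matches were not tested in this way. The members and lists were chosen with earlier results of these data known. The members, the 5 nearest probes of each, list probes past 2-fold at day 3 or day 10 (up to 6 per direction) and the 3 highest probes of each day were to be named. A dye pair may hold 1 pair of extracts, so no test was used. Alternatives were 2 centrings, a scaling, a dye correction, a 4-fold threshold and leaving out arrays. The GEO annotation gave 1 gene for 61 microRNA probes, among them 3 of the 5 members.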

Additional observations from a re-analysis of the deposited data

Results flagged for a closer look

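All miR-210 and miR-34 probes lay on opposite sides of 0 at different times, as deposited. These differences were not tested, and each comparison with overnight rests on 1 overnight array without a dye swap. For 2org-210 the log2 ratio was higher by 6.13 at day 3 and by 5.51 at day 10 than overnight, for 1org-34c by 5.67 and 6.85, and for 2org-34 by 5.23 and 5.96. For 1org-34a day 3 was above overnight by 3.25 and for 1org-34b by 3.38. Day 10 minus day 3 was -1.56 for 1org-34a and -2.34 for 1org-34b, with every array of day 10 below 0 and every array of day 3 above it. Such opposite signs at days 10 and 3 were found in 49 of the 171 microRNA probes (28.7%), and in 29 (17.0%) after centring.

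After centring, 2org-210 was above 0 at all 3 times, and its differences from overnight were 3.58 at day 3 and 4.21 at day 10. For 1org-34c they were 3.11 and 5.55 and for 2org-34 2.67 and 4.67. For 1org-34a and 1org-34b the centred differences of day 3 and overnight were 0.69 and 0.82, and those of day 10 and day 3 were -0.30 and -1.09.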

How the results depend on the processing

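The positive ratios of 2org-210, 1org-34c and 2org-34 at days 3 and 10, each past 2-fold, held under both centrings, the scaling and without any 1 array of a pair. Values below are overnight, day 3, day 10 and day 10 minus day 3. Centred on the microRNA median they were 0.65, 4.22, 4.86 and 0.64 for 2org-210, -0.85, 2.26, 4.70 and 2.44 for 1org-34c, -0.032, 2.64, 4.63 and 1.99 for 2org-34, -0.60, 0.086, -0.21 and -0.30 for 1org-34a, and -0.56, 0.26, -0.82 and -1.09 for 1org-34b. Centred on the median of the 7 other small RNA probes they were 0.10, 6.69, 5.02 and -1.67 for 2org-210, -1.40, 4.73, 4.87 and 0.13 for 1org-34c, -0.58, 5.11, 4.79 and -0.31 for 2org-34, -1.15, 2.55, -0.052 and -2.61 for 1org-34a, and -1.10, 2.73, -0.66 and -3.39 for 1org-34b. With arrays scaled to the same spread they were -1.39, 4.23, 5.09 and 0.87 for 2org-210 and -3.29, 2.58, 4.98 and 2.40 for 1org-34c. For 2org-34 they were -2.25, 2.86, 4.88 and 2.02, and for 1org-34a -2.98, 0.84, -0.74 and -1.58. For 1org-34b they were -2.92, 0.999, -1.51 and -2.51, the day 3 value just under 2-fold. The dye correction moved the overnight values to -1.18, -2.54, -1.87, -2.01 and -2.05 in the same order of probes.

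Of the 5 members lower overnight as deposited, 0 were after centring on the microRNA median (4.09% of all), 3 after centring on the other small RNA probes (26.9% of all microRNA probes) and 3 at 4-fold (38.0% of all). The 1 member lower at day 10 came to 0 under median centring (4.09% of all), the other centring (1.75%) and at 4-fold (0.585%). Between day 10 and day 3, the 1 member higher became 2 under median centring (28.1% of all) and scaling (11.1%) and 0 under the other centring (5.26%) and at 4-fold (5.26%). The 2 members lower became 1 under median centring (13.5%) and at 4-fold (21.6%), 3 under the other centring (70.2%), and stayed 2 under scaling (43.9%). They were 1 to 2 without 1 array of a pair, with 1 when the day 3 array that held activated RNA in Cy3 was left out. Centring and scaling shift these by construction, and which setting is right was not tested. Of all microRNA probes 110 were higher at day 3 without the array with activated RNA in Cy5, against 65, and 27 higher and 52 lower at day 10 without the array with it in Cy3, against 17 and 29. By Pearson's r in place of distance, 2 to 4 of the 5 nearest probes of each member were shared. The 2 arrays of a day were used as a dye pair, replicate numbers were given in accession order, and no test was made.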

Other observations

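As deposited, 15 of the 171 microRNA probes were at least 2-fold higher on both days, 13 after centring on the median and 26 after centring on the other small RNA probes. At a mean log2 ratio of at least 2 on both days there were 8, namely 2org-210, 1org-34c, 2org-34, 2org-222, 2org-221, 1org-21, 1org-23a and 1org-96. Of these, 2org-210, 1org-34c and 2org-34 were picked with their values known, and the others came from the cut-off itself. At 3 or more on both days there were 3, 2org-210, 1org-34c and 2org-34. These cut-offs were set with the values of the members known, their lowest mean being 3.07 for 1org-34c at day 3. Nothing is therefore read from these counts. The other probes among the 3 highest at day 3, 1org-31 (4.99) and 2org-214 (4.96), were not among the 8.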
